A study of Homo sapiens with 14 samples.

Results

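RNA-seq was used to compare gene expression between ADAR1 knockdown (KD) and control cells of a human line, and the genes described here are the 7370 of 21574 rows of the authors' expression table whose mean over the KD and the control library was at least 5 RPKM (read counts scaled to transcript length and to the reads of the library). The line is labelled HepG2, which derives from a human liver carcinoma. Control cells received scrambled siRNA and KD cells received siADAR1, siRNA against *ADAR*, and the labels describe the transfection as stable. RNA-seq is 1 poly-A selected library per condition, that is 2 of the 14 samples of the series. The other 12 are PARS-seq libraries, in which RNA is cut with S1 nuclease or RNase V1 to read its secondary structure, and Ribo-seq libraries, which hold ribosome-protected fragments, each made from the same 2 conditions in 2 replicates.

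ADAR1 converts adenosine to inosine in double-stranded RNA, and most of its substrates are inverted Alu repeats in introns and untranslated regions. Editing marks such duplexes as the cell's own, so that the cytoplasmic sensors MDA5, PKR and OAS are not switched on by them. Activated sensors lead to type I interferon, and interferon acts through a complex that holds IRF9 on a set of antiviral genes.

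The targeted gene was examined first. *ADAR* (chromosome 1, 154554171 to 154600489, minus strand, GRCh37) was at 54.8 RPKM in the control library and at 15.4 in the KD library, and the ratio of 0.280 had a 95% counting interval from 0.270 to 0.291. *ADAR* fell by 72.0%, rank 6 among the falls of all 7370 genes. *ADARB1*, which encodes the editing enzyme ADAR2, was at 30.2 RPKM in the control library and at 33.2 in the KD library, and its ratio was 1.10 with a counting interval from 1.07 to 1.13. In PARS-seq *ADARB1* was at 5.75 and 8.89 RPKM in control and at 13.8 and 16.9 in KD, higher in KD without overlap, and in Ribo-seq at 2.81 and 9.90 in control and 7.47 and 6.52 in KD, with overlap. Of the 8 deaminase genes with a mean of at least 5 RPKM, only *ADAR* passed 2-fold, and the tRNA deaminase gene *ADAT1* came next, at 8.42 RPKM in control and 5.49 in KD.

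The label of the line was compared with its markers. *ALB*, which encodes serum albumin, was listed at 0 RPKM in the control library and at 0.0442 in KD, and *AFP*, *APOB*, *FGB* and *TTR* were listed at 0 in both. None of the 10 hepatocyte markers examined reached 1 RPKM in any of the 10 columns of the table. An exact 0 in such a table can also be a failed estimate, since *MRPS18B*, a mitochondrial ribosomal protein gene at 121 and 75.2 RPKM in RNA-seq, was listed at 0 in 6 of the 10 columns. As listed, the marker values go against the label, and the cells are named below only as labelled. Markers of other cells differed between the libraries. Of 10 fibroblast and endothelial markers, 5 reached 1 RPKM in some column, led in RNA-seq by *COL1A1* and over all columns by *LUM* (112 RPKM in Ribo-seq control replicate 1), and in RNA-seq the 10 summed to 82.2 RPKM in control and 56.2 in KD. The row of *COL3A1*, at 13.8 and 6.14 RPKM, fell, and *KDR* was listed at 0 in control. *COL1A2* was at 0.123 and 0.0122 RPKM, and *CDH5*, *PECAM1* and *VWF* stayed under 1 RPKM in every column. The 6 markers of blood cells, of which *HBB* marks red cells and the others leukocytes, summed to 23.1 and 16.2 RPKM, nearly all of it from *CD68* (22.7 and 15.6), while *PTPRC* and *CD3E* were listed at 0 in control and *HBB* in both. Whether cells of these types were present, and their part in the results, was not tested. In bulk RNA fewer cells of a type and less RNA per cell cannot be told apart.

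Depth was recovered from the values, since the lowest RPKM values step in whole reads. The control library held 40729941 reads and the KD library 30209865. Whole reads came out for 6940 of the 7370 genes, and their median in control was 2038 reads, so that the counting error of most genes was small beside a 2-fold difference. The counting error covers sampling of reads within a library and says nothing on the spread between cultures, for which RNA-seq holds no replicate.

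Most genes kept their level. Differences are given as log2((KD + 1)/(control + 1)) in RPKM, below called the log2 ratio, and a gene is said to have risen or fallen at a log2 ratio of at least 1 or at most -1. The median log2 ratio was -0.01, the quartiles were -0.21 and 0.19, and 7243 genes (98.3%) lay within 2-fold. On this rule 59 genes rose (0.801%) and 68 fell (0.923%), and 3 in each direction passed 4-fold. Both counts hold genes that passed the 5 RPKM filter only through their higher library, such as *ESPN* among the fallen. The 3 past 4-fold upward, *MIR3197*, *MT1F* and *ITGB4*, are all of this kind. The fallen genes had a median of 31.8 RPKM in control and 13 in KD. The risen genes had a median of 8.26 RPKM in control and 21.6 in KD. With a single library per condition no gene has a test, and each call describes these libraries.

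**Figure D1:**
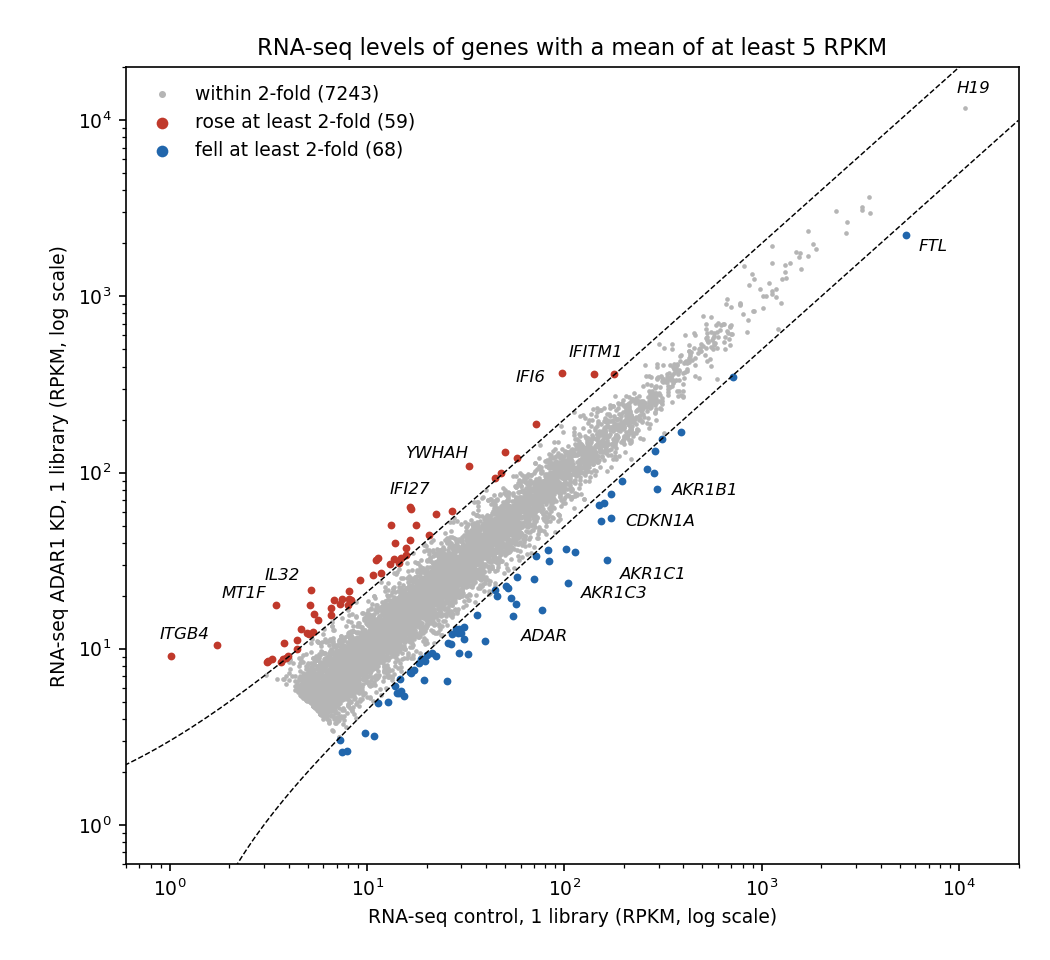
RPKM of the 7370 genes in the control library (x axis, log scale) and in the ADAR1 KD library (y axis, log scale), 1 point per gene, with the 59 risen genes in red, the 68 fallen in blue and 7243 in grey; dashed lines mark a log2 ratio of 1 and -1. The fallen genes reach further up the scale, to *FTL* at 5357 RPKM in control, and the risen genes lie mostly under 100 RPKM.

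The 4 largest falls were in enzymes that reduce or oxidise aldehydes and ketones. *AKR1C1*, an aldo-keto reductase that acts on steroids and xenobiotics, was at 165 RPKM in control and 31.9 in KD, the lowest log2 ratio of all genes (-2.33). *AKR1C3*, its neighbour on chromosome 10 (5077546 to 5149878, plus strand, GRCh37), was at 105 and 23.5 RPKM. *AKR1B1*, aldose reductase, was at 296 and 80.9 RPKM. Aldo-keto reductases thus supplied 3 of the 4 largest falls. *ALDH3A1*, which oxidises aromatic and lipid aldehydes, stood between them at 77.2 and 16.6 RPKM. The members of the *AKR1C* cluster are close in sequence, and how the authors' unique alignments split reads among them is not known, so that each of their levels is uncertain. The other aldo-keto reductases over 5 RPKM were *AKR1A1*, at 57.5 and 47.4 RPKM, and *AKR7A2*, at 32.3 and 28.6, neither past 2-fold.

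*AKR1C1* and *AKR1C3* also belong to a larger group, the known targets of NRF2, the transcription factor that answers oxidative and electrophilic stress once its inhibitor KEAP1 releases it. Of 27 NRF2 targets over 5 RPKM, 10 fell, none rose, and all 27 had a log2 ratio below 0, with a median of -0.61. Of all 7370 genes 0.923% fell and 3807 were below 0, and the median was -0.01. Of the 27 only *GCLM*, at 7.52 and 4.60 RPKM, passed the filter through its higher library alone. *OSGIN1*, an oxidative stress growth inhibitor, was at 25.4 RPKM in control and 6.54 in KD. *EPHX1*, microsomal epoxide hydrolase, was at 285 and 98.9 RPKM. The light chain of ferritin, *FTL*, had the largest fall in absolute level, from 5357 to 2244 RPKM. The peroxiredoxin *PRDX1* was at 712 and 349 RPKM. The remaining 4, named after their values were seen, were *ABCC2*, an export pump for conjugates (25.7 and 10.8 RPKM), the quinone reductase *NQO1* (149 and 65.5), the redox-sensitive transcriptional coregulator *PIR* (19.6 and 8.56, in a row merged with *FIGF*) and the sulfiredoxin *SRXN1* (71.8 and 33.5). Levels of the regulators themselves were close between the libraries, with *NFE2L2*, which encodes NRF2, at 29.7 and 28.4 RPKM and *KEAP1* at 64.0 and 59.7. The autophagy receptor *SQSTM1*, also on the list, was at 593 and 341 RPKM, and *FTH1*, the ferritin heavy chain, at 3234 and 3206, so that the ferritin chains moved unequally. The antioxidant response element, which NRF2 binds, was searched as TGAC, any 3 bases and GC on both strands of the promoter windows described below for interferon genes, and 3702 of 27305 windows (13.6%) hold it. Windows were held for 18 of the 27 targets, too few for a count over the list. Those with a match were *GCLM*, *ME1* and *PGD*, with log2 ratios of -0.61, -0.35 and -0.54, none of them past 2-fold, and no stretch is shown.

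The other large falls were of mixed function. *CDKN1A*, which encodes the cell cycle inhibitor p21, was at 172 RPKM in control and 55.6 in KD, and its ratio was 0.324, with a counting interval from 0.313 to 0.335. The antiproliferative gene *BTG2* was at 29.9 and 12.3 RPKM. Fallen genes also included *PTGS1*, a cyclooxygenase of prostaglandin synthesis, at 39.5 and 11.1 RPKM, *DUSP2*, a phosphatase of MAP kinases, at 56.8 and 17.9, and *FBXO2*, an F-box protein that binds glycoproteins, at 113 and 35.5. Others were *PPT1*, palmitoyl-protein thioesterase, at 83.7 and 31.6 RPKM, the serine carboxypeptidase *SCPEP1*, at 29.3 and 9.41, and *CSTB*, an inhibitor of cathepsins, at 263 and 105. The rest of the 25 largest falls were *TPRG1L*, *C1QTNF6*, *C9orf9*, *TRIM16L*, *GLP2R*, *CARD6*, *HPD*, *HECTD3*, *CREBL2*, *KCND1* and *ESPN*, with log2 ratios from -1.69 for *TPRG1L* to -1.28 for *ESPN*.

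Interferon-stimulated genes were among the largest rises. *IFI6*, an interferon-induced protein of mitochondria and endoplasmic reticulum, was at 96.8 RPKM in control and 367 in KD, and the ratio of 3.79 had a counting interval from 3.58 to 4.00. *IFI27* was at 16.5 and 63.9 RPKM. *IFITM1*, which blocks the entry of viruses at membranes, was at 141 and 365 RPKM. Of the transcription factors of the pathway 2 rose, namely *IRF9*, the DNA-binding part of the interferon response complex, at 13.8 and 39.8 RPKM, and *IRF7*, at 11.1 and 31.7.

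In all, 28 of 55 interferon-stimulated rows reached 5 RPKM, of which 5 rose and none fell, 24 had a log2 ratio above 0, and the median was 0.63. Of all 7370 genes 0.801% rose and 3563 were above 0, and the median was -0.01. Of the 28 only *PARP12*, at 4.71 and 9.27 RPKM, passed the filter through its higher library alone. At a threshold of 1.5-fold, 15 of the 28 passed upward and none downward, against 297 upward and 335 downward of all 7370 genes. Members short of 2-fold included the ubiquitin-like *ISG15*, at 301 and 540 RPKM, and *IFITM3*, at 813 and 1487. The lowest member was *USP18*, a brake on the receptor, at 6.42 and 5.77 RPKM. *STAT2*, a partner of IRF9, was at 8.85 and 8.76 RPKM. Among 10 genes of double-stranded RNA sensing none passed 2-fold, and the list median was 0.37. *OAS1* was at 23.4 and 34.8 RPKM, *OAS3* at 14.6 and 22.3, and the adaptor *MAVS* at 10.1 and 8.55. In PARS-seq *OAS1* was at 7.86 and 7.76 RPKM in control and at 4.96 and 5.33 in KD, lower in KD without overlap. In Ribo-seq *OAS1* was at 25.8 RPKM in control and 57.99 in KD of replicate 1, and at 5.14 and 2.72 in replicate 2. *OAS3* was at 11.4 and 23.5 RPKM in replicate 1, and at 3.91 and 2.95 in replicate 2, so that the replicates moved in opposite directions. The sensor genes *IFIH1* (MDA5), at 3.74 and 5.06 RPKM, and *EIF2AK2* (PKR), at 2.51 and 4.08, stayed under the 5 RPKM mean.

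Interferon acts on these genes through a short promoter element, the interferon-stimulated response element. It was searched as TTTC, any 2 bases and TTTC again, or on the other strand as GAAA, 2 bases and GAAA, in promoter windows from RefSeq (GRCh38.p14), each reaching from 250 bases before the gene start to 50 after, and 996 of 27305 windows (3.65%) hold it. Windows were held for 19 of the 28 genes, too few for a count over the list, and 4 stretches are shown, from genes that rose, of the 7 matches in their windows. They were placed on GRCh37 by an exact match of the whole window, and capitals mark the element.
*IFI6*, chr1:27998799-27998828, minus strand: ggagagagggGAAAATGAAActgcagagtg
*IFI6*, chr1:27998840-27998869, minus strand: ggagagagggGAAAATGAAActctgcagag
*IFI27*, chr14:94576964-94576993, plus strand: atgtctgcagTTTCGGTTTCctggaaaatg
*IFITM1*, chr11:314024-314053, plus strand: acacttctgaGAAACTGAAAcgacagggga
The same letters stand in the window of *ISG15*, with a log2 ratio of 0.84, and in that of *B2M*, with one of 0.05. A match describes the letters in the window and says nothing on binding.

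Metallothioneins, small cysteine-rich proteins that bind zinc and copper, were higher in KD in the 4 of 12 listed genes that passed the 5 RPKM filter, and the other 8 were listed at 0 in both RNA-seq libraries. *MT1F* was at 3.45 RPKM in control and 17.8 in KD, and *MT1X* at 3.10 and 8.44. Both rose, with ratios of 5.15 (counting interval from 3.88 to 6.93) and 2.72 (from 1.93 to 3.89). *MT2A*, the most abundant, was at 112 and 220 RPKM, and *MT1E* at 26.5 and 46.8. Both were short of 2-fold, with log2 ratios of 0.96 and 0.79. *MT1F* and *MT1X* passed the filter only through their KD level, so no median over the 4 is given. The genes lie side by side on chromosome 16 (GRCh37), from *MT2A* at 56642496 to *MT1X* at 56718108, and are close in sequence, so that their single levels are uncertain. Metal-response elements, which the zinc sensor MTF1 binds, have the core TGCGCNC or TGCACNC, and on either strand 8014 of 27305 promoter windows (29.3%) hold one. The window of *MT1X* holds 4 of them and that of *MT2A* 8. The 3 of the *MT1X* window that read on the strand of the gene are shown, with the core in capitals.
*MT1X*, chr16:56716221-56716249, plus strand: aggccccgcggTGCGCCCggcgctgggct
*MT1X*, chr16:56716249-56716277, plus strand: tcacgggttgcTGCACCCggcccaggatc
*MT1X*, chr16:56716318-56716346, plus strand: ggcggggcctcTGCGCCCggccctcttcc

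The other large rises were of mixed function. *ITGB4*, the integrin of hemidesmosomes, was at 1.75 RPKM in control and 10.5 in KD, and its ratio was 5.99, with a counting interval from 5.39 to 6.66. It passed the 5 RPKM filter only through its KD level. The NF-kappaB list had a median of 0.45 over 9 members, of which *IL32*, a proinflammatory cytokine, at 5.19 and 21.6 RPKM, and *RELB*, a subunit of NF-kappaB, at 8.12 and 21.3, rose, against 0.801% of all genes. In PARS-seq the median of the list was 0.09 and -0.02, and *IL32* was at 91.6 and 96.99 RPKM in control and at 78.4 and 95.8 in KD, with overlap between the groups. In Ribo-seq the median of the list was 0.36 in replicate 1 and -0.07 in replicate 2. *PI3*, the protease inhibitor elafin, was at 13.2 and 50.3 RPKM, and *C3*, the central complement component, at 20.5 and 44.1. *JUN*, an immediate early transcription factor, was at 4.65 and 12.98 RPKM, and passed the 5 RPKM filter only through its KD level, so no count over the immediate early genes is given. *YWHAH*, one of 7 genes for 14-3-3 proteins, was at 32.7 and 109 RPKM, and the other 6 stayed within 2-fold. *C22orf24* is a synonym of *YWHAH-AS1*, which overlaps *YWHAH* on the opposite strand, and its levels of 16.7 and 62.5 RPKM cannot be told apart from reads of *YWHAH*, since the counting command given by the authors sets no strand.

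More genes of mixed function made up the rest of the 25 largest rises. *EMP2*, a tetraspan membrane protein, was at 9.19 RPKM in control and 24.6 in KD. *BCAM*, a laminin receptor, was at 17.7 and 50.5 RPKM. *STEAP3*, a ferric reductase of endosomes, was at 5.41 and 15.9 RPKM. *ATP6AP1*, an accessory subunit of the proton pump of lysosomes, rose the most in absolute level of these, from 71.7 to 188 RPKM. *TOP1MT*, the mitochondrial topoisomerase, *POLR3E*, a subunit of RNA polymerase III, *CHPF*, which extends chondroitin chains, *TNNC1*, cardiac troponin C, *HES7*, a Notch-pathway repressor, *HOXB9* and *C19orf66* complete the list, with log2 ratios from 1.28 for *POLR3E* to 1.60 for *HES7*. The largest log2 ratio of all, 2.33, was that of the hairpin row *MIR3197*, which rests on 3 reads in control and 20 in KD, and a 95% counting interval of its ratio from 2.67 to 47.2.

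**Figure D2:**
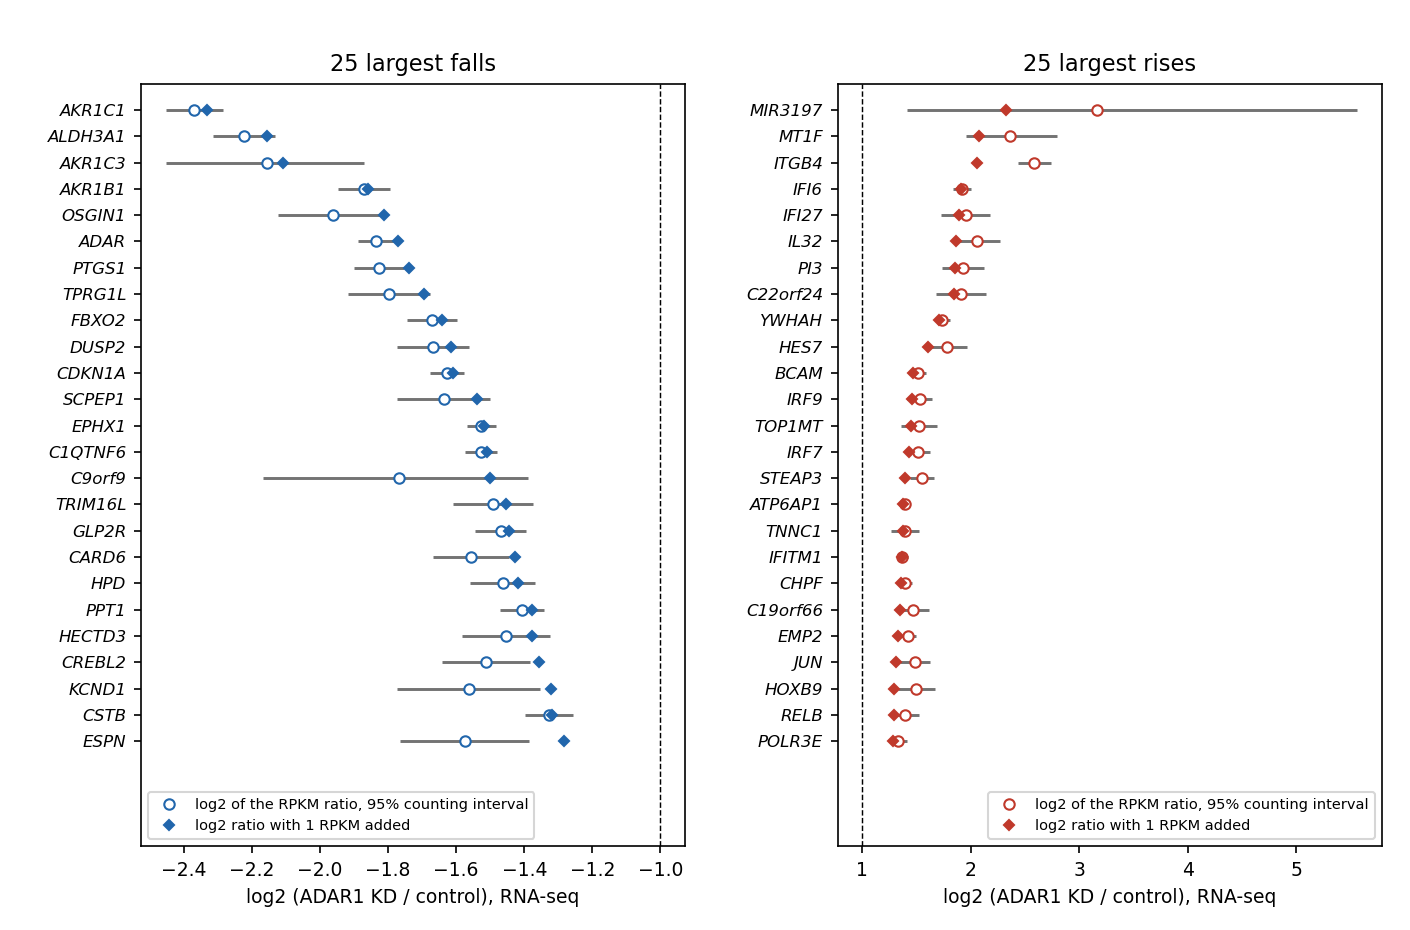
The 25 largest falls (left, blue) and the 25 largest rises (right, red), with the log2 ratio with 1 RPKM added (diamonds), the log2 of the plain RPKM ratio (circles) and its 95% counting interval from recovered reads (bars); the dashed line marks 2-fold. The intervals of all 50 lie beyond 2-fold, and the widest is that of *MIR3197*.

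Most other gene lists stayed near the median of all genes. The 71 cytosolic ribosomal proteins had a median log2 ratio of -0.01 and the 32 mitotic genes one of -0.02. Of 28 genes of the integrated stress response none passed 2-fold, and the members spread from -0.69 for *SESN2* to 0.98 for *CBS*, around a median of 0.04. Of the 11 genes listed as carrying edited 3′UTRs or recoding sites none passed 2-fold, and the largest difference was in *AZIN1*, an antizyme inhibitor with a known recoding site, at 14.5 and 9.66 RPKM.

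**Figure D3:**
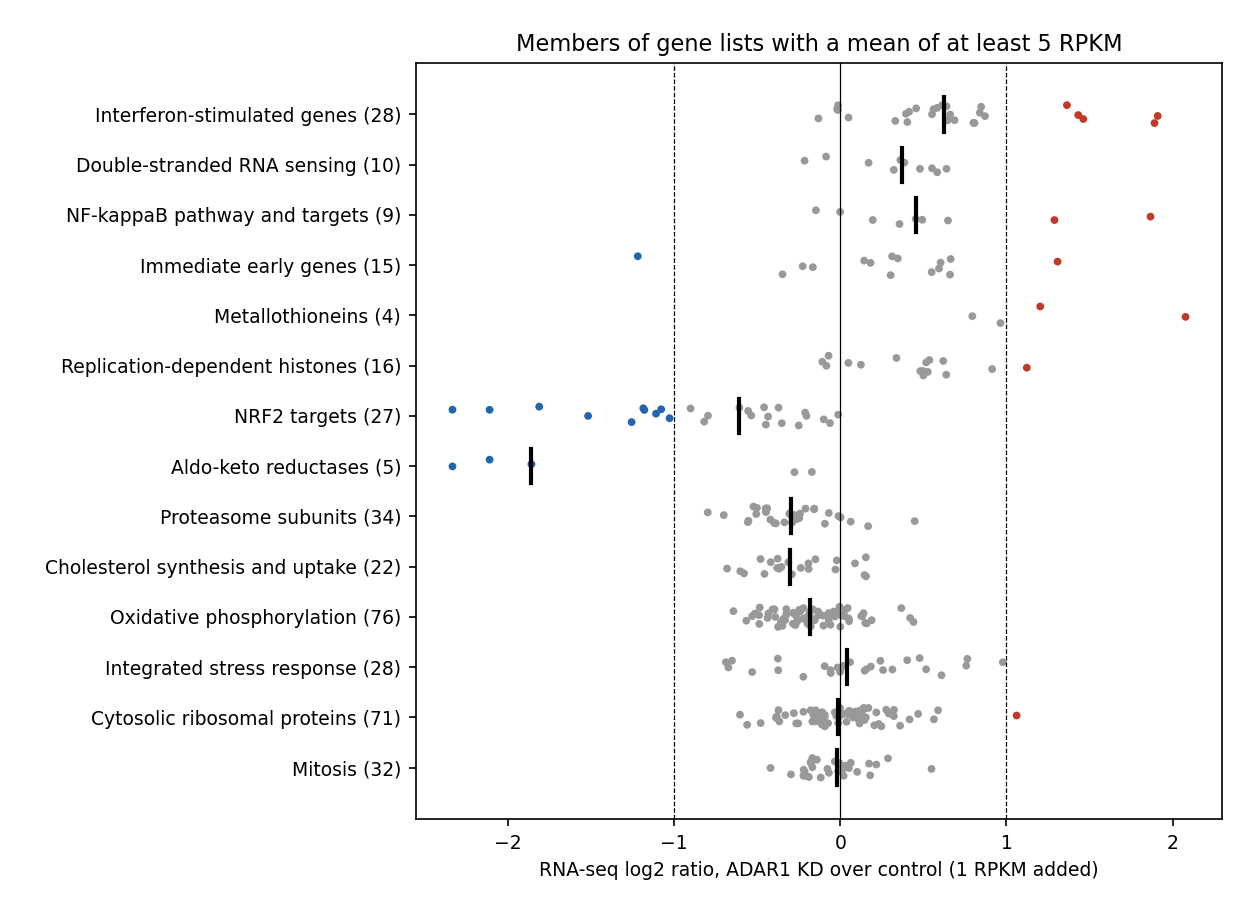
RNA-seq log2 ratios (x axis, ADAR1 KD over control, 1 RPKM added) of the members of 14 gene lists with a mean of at least 5 RPKM, 1 point per gene, red or blue past 2-fold; black bars mark medians (none for 3 lists with 2 or more members that passed the filter through KD alone) and the number of members stands beside each name. All 27 NRF2 targets lie left of 0, as do 3807 of all 7370 genes, and the ribosomal and mitotic lists are centred on 0. The 4 metallothioneins lie right of 0, where the filter, passed only through KD, fixed the side of *MT1F* and *MT1X*.

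Of the 10 most abundant transcripts only *FTL* passed 2-fold. The row of *H19*, a long noncoding RNA, led both libraries with 10738 RPKM in control and 11734 in KD. *GAPDH* was at 3540 and 2989 RPKM, *RPL8* at 3503 and 3657, and *ACTB* at 3234 and 3093. The ribosomal protein *RPLP1* was at 2376 and 3050 RPKM and the cytokine *MIF* at 1709 and 2355, a ratio of 1.38. *ALPI*, intestinal alkaline phosphatase, was at 2665 and 2293 RPKM, and has close paralogs with which reads may be shared. Among the 200 most abundant genes only *FTL* and *PRDX1* passed 2-fold, and the largest log2 ratio upward was 0.87, for *IFITM3*. The calcium-binding *S100A4* was at 1203 and 654 RPKM and the membrane protein *BASP1* at 1132 and 1945.

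PARS-seq and Ribo-seq libraries, which entered neither the 5 RPKM filter nor the 2-fold calls, gave values from other libraries of the same conditions. A PARS-seq value is the authors' mean over a replicate's S1 and V1 libraries. Across the 7370 genes, which are not independent replicates, Pearson's r between the RNA-seq and the PARS-seq log2 ratio was 0.684 in replicate 1 and 0.704 in replicate 2. Against Ribo-seq it was 0.474 in replicate 1 and 0.0701 in replicate 2. Of the 68 fallen genes, 66 had both PARS-seq KD values below both control values, against 27.8% of all genes. Of the 59 risen genes, 51 had both KD values above both control values, against 32.8% of all genes. In Ribo-seq 29 of the 68 lay below, against 8.01% of all genes, and 15 of the 59 above, against 8.68%. No gene passed the limma test in Ribo-seq (0 of 7241 tested in either direction, 0%, at a Benjamini-Hochberg adjusted p under 0.05), with 18 genes higher and 6 lower in KD at an unadjusted p under 0.05. The fit held no term for the replicate number, so the gap between the replicates, described below, enters its error. With such a term some genes were called, as given under the dependence on the processing.

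The Ribo-seq replicates differed from each other more than the conditions did. The correlation of log2 RPKM was 0.666 between the control replicates, but 0.955 between control and KD of replicate 1 and 0.933 between those of replicate 2. Taken alone, replicate 1 had 64 of the 68 fallen genes below 0 and 53 of the 59 risen above 0, with medians of -1.11 and 0.87. In that replicate 53.8% of all genes lay below 0 and 45.9% above. Replicate 2 had 55 and 42, with medians of -0.48 and 0.30, while 42.3% of all genes lay below 0 and 57.4% above. The targeted gene moved less in replicate 2 as well, since *ADAR* was at 43.6 RPKM in control and 8.73 in KD of replicate 1, and at 55.5 and 44.0 in replicate 2.

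**Figure D4:**
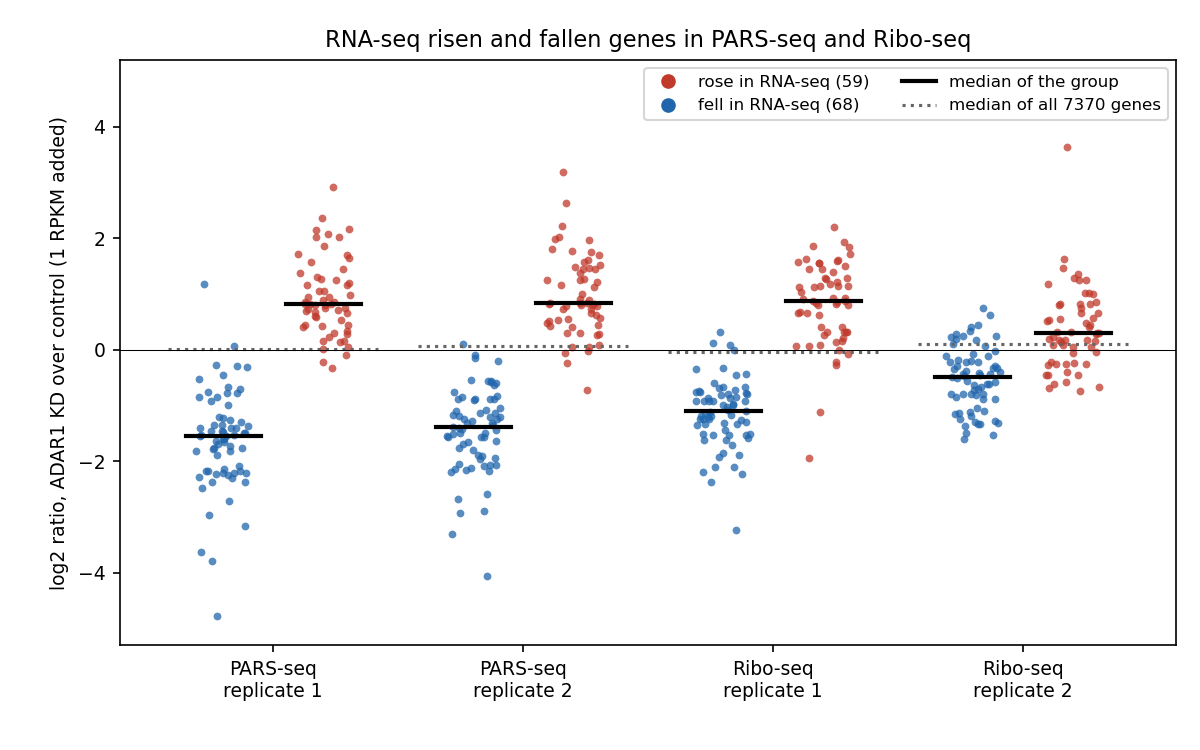
Log2 ratios (y axis, ADAR1 KD over control, 1 RPKM added) in PARS-seq and Ribo-seq, by replicate, of the 59 genes that rose (red) and the 68 that fell (blue) in RNA-seq; black bars are group medians and dotted lines the medians of all 7370 genes. The groups lie apart in both PARS-seq replicates and in Ribo-seq replicate 1, and overlap most in Ribo-seq replicate 2.

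Many of the fallen enzymes were also lower in PARS-seq, and in Ribo-seq the replicates overlapped for several of them. *AKR1C1* was at 97.9 and 77.2 RPKM in the PARS-seq control replicates and at 2.61 and 3.66 in KD, so that the groups did not overlap. In Ribo-seq it was at 167 and 11.1 RPKM in control replicates 1 and 2 and at 34.6 and 4.52 in KD, lower within each number but overlapping between them. *AKR1C3*, *AKR1B1* and *EPHX1* overlapped in Ribo-seq likewise. In Ribo-seq replicate 2 *PRDX1* was at 469 RPKM in control and 557 in KD, *PPT1* at 49.997 and 57.1, and *SCPEP1* at 12.5 and 14.3, opposite to RNA-seq. Over the NRF2 list the median log2 ratio was -1.27 and -1.16 in the PARS-seq replicates, -0.74 in Ribo-seq replicate 1 and -0.04 in replicate 2. In PARS-seq 24 of 27 members had both KD values below both control values, against 27.8% of all genes. In Ribo-seq 3 of the 27 lay below, against 8.01% of all genes, and none above, against 8.68%. *CDKN1A* was lower in every KD value than in any control value of its assay, at 424 and 447 RPKM in PARS-seq control, 53.4 and 59.6 in PARS-seq KD, 62.4 and 97.3 in Ribo-seq control, and 16.04 and 39.7 in Ribo-seq KD. Genes with this pattern and the largest falls were *ALDH3A1*, *OSGIN1*, *TPRG1L*, *FBXO2*, *DUSP2*, *CDKN1A*, *C1QTNF6*, *C9orf9*, *TRIM16L* and *HECTD3*.

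Interferon-stimulated genes were mixed in PARS-seq. *IFI6* was at 181 and 360 RPKM in the PARS-seq control replicates and at 240 and 304 in KD, so that the groups overlapped. *IFI27* was at 3.86 and 6.54 RPKM in control and at 2.87 and 3.55 in KD, with both KD values below both control values. In Ribo-seq replicate 1 *IFI27* was at 20.03 RPKM in control and 75.3 in KD, and in replicate 2 at 0.923 and 0.638. Over the 28 genes the median log2 ratio was -0.04 and -0.14 in the PARS-seq replicates, 0.72 in Ribo-seq replicate 1 and 0.22 in replicate 2. The 5 that rose in RNA-seq differed among themselves in PARS-seq. *IRF9* was at 5.65 and 9.29 RPKM in control and at 10.5 and 13.7 in KD, and *IFITM1* at 47.0 and 42.5 in control and at 52.2 and 51.0 in KD, without overlap. *IRF7* was at 1.63 and 1.73 RPKM in control and at 1.71 and 1.81 in KD, with overlap. In PARS-seq 5 of the 28 had both KD values above both control values, against 32.8% of all genes, and 10 had both below, against 27.8%.

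The 4 metallothioneins had both KD values above both control values in PARS-seq, as had 32.8% of all genes, and in Ribo-seq, as had 8.68%, and *MT1F* and *MT1X* are among them only through their KD level in RNA-seq. *MT2A* was at 190 and 326 RPKM in PARS-seq control and at 563 and 1132 in KD, and in Ribo-seq at 158 and 129 in control and at 336 and 203 in KD. The genes with the largest rises that lay on the same side in all assays were *MT1F*, *C22orf24*, *YWHAH*, *STEAP3*, *ATP6AP1*, *TNNC1*, *CHPF*, *EMP2*, *POLR3E* and *LINC00263*. *EMP2* was at 2.15 and 2.14 RPKM in PARS-seq control and 11.9 and 11.7 in KD, and at 10.7 and 12.4 in Ribo-seq control and 33.4 and 25.6 in KD.

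**Figure D5:**
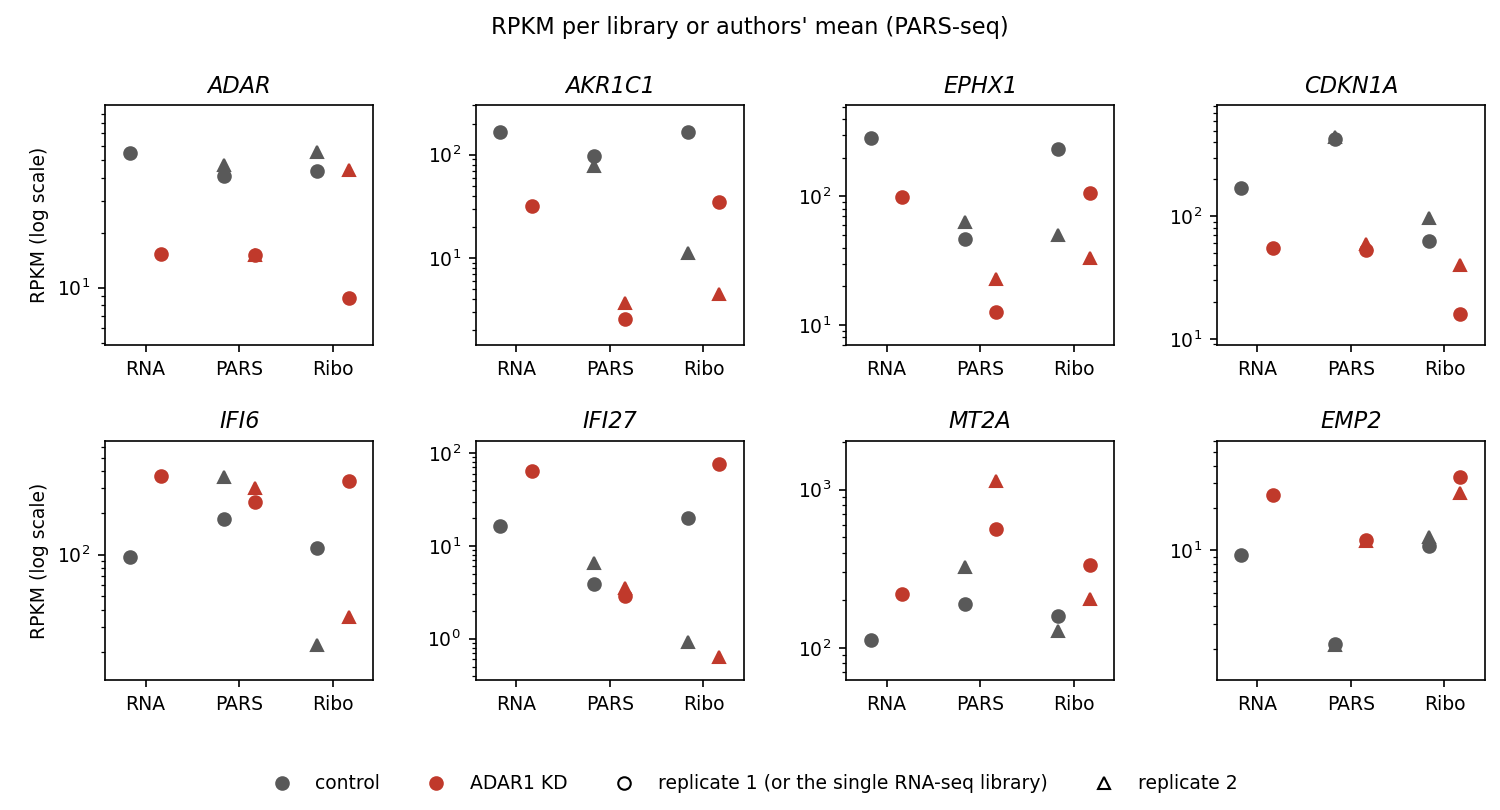
RPKM (y axis, log scale, its range set for each gene) of 8 genes in RNA-seq, PARS-seq (the authors' means of S1 and V1) and Ribo-seq, control in grey and ADAR1 KD in red, circles for replicate 1 or the single RNA-seq library and triangles for replicate 2. *CDKN1A*, *MT2A* and *EMP2* separate control from KD in each assay, while *IFI6* and *IFI27*, higher in KD in RNA-seq, overlap between control and KD in Ribo-seq, and in PARS-seq *IFI6* overlaps and *IFI27* is lower in KD.

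Genes near the threshold show how it divides the list. *PTK2B*, at 3.65 and 8.39 RPKM, and *CNTNAP1*, at 3.89 and 8.87, were the last to count as risen, and *EFNA3*, at 6.61 and 14.2, and *SLC41A1*, at 8.76 and 18.4, were the first not to. *TMSB4X*, at 312 and 155 RPKM, and *CCDC167*, at 44.5 and 21.5, were the last to count as fallen, and *MIR662* and *MSLNL*, rows with identical values of 7.24 and 3.14, the first not to. With a pseudocount of 5 RPKM in place of 1 the counts were 28 risen and 37 fallen.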

How the data were processed

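The authors deposited 1 table of RPKM values for all libraries, which they made from reads trimmed with cutadapt, aligned to hg19 with bowtie2 in local mode and kept where uniquely aligned, and then counted on RefSeq transcripts with coverageBed (options -split and -count, no strand option). Tool versions are not given in the sources used here. PARS-seq columns are the authors' means over the S1 and V1 libraries of a replicate. The table holds no fold changes or p-values of the authors and 0 columns of other samples. The 8 read-start files of PARS-seq were not used.

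Samples were grouped by their siRNA label. Rows with a mean of at least 5 RPKM over the RNA-seq libraries were kept and log2((KD + 1)/(control + 1)) was computed, with a pseudocount of 1 RPKM and a threshold of 2-fold (Python 3.11.15, pandas 2.3.3, numpy 2.4.6, matplotlib 3.10.9). RNA-seq has 1 library per condition, so no test was run. Adding 1 RPKM understates the change of low genes. Ribo-seq (2 replicates per group, which the labels do not tie to separate cultures) was tested on log2(RPKM + 1) with limma 3.58.1 in R 4.3.3, with Benjamini-Hochberg adjustment, two-sided. Such p-values measure only the spread between these samples.

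Whole reads were recovered from the steps of the RPKM values, an analysis added after the data were seen. The step was tested on data with known reads. A gene's reads can come out as a whole fraction of the true number, and its interval is then too wide. Intervals of ratios are 95% exact (Clopper-Pearson, scipy 1.17.1) and cover counting error only.

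Genes named were *ADAR* and *ADARB1*, the 25 largest rises and falls, up to 4 members of each of 50 lists with the largest log2 ratio in size, the 10 most abundant genes with the 5 largest rises and falls among the 200 most abundant, the 10 largest rises and falls on the same side in all assays, and 2 genes on each side of a threshold. Other list members named were chosen after their values were seen. The genes and lists were chosen with earlier results of these data known. Coordinates are those of GENCODE v44 mapped to GRCh37. Promoter windows are from RefSeq. The alternatives tried were other pseudocounts, filters, scalings and thresholds, and, for Ribo-seq, a replicate block and leaving out each library. Some genes and a list that holds one of them are not reported here.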

Additional observations from a re-analysis of the deposited data

How the results depend on the processing

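The counts of 59 risen and 68 fallen genes depended on the threshold and on how low levels were treated. With a pseudocount of 5 RPKM they were 28 and 37, and with a threshold of 1.5-fold 297 and 335. With a mean of at least 1 RPKM 89 rose, and with any mean above 0 there were 95 risen and 107 fallen genes. Other pseudocounts, minima and scalings stayed within 1.5 times, as did 2 alternatives chosen after seeing the data, namely leaving out short RNAs and merged rows (55 and 63) and asking that the counting interval also pass 2-fold (51 and 56). Of 1585 pairs of a named gene and an alternative none reversed, and 31 moved by more than 0.25 on the log2 scale or the counting interval, 29 of them with a pseudocount of 5. Of 84 pairs of a list and an alternative none reversed. The median of the aldo-keto reductases ranged from -1.87 to -0.28, that of interferon-stimulated genes from 0.53 to 0.64 and that of NRF2 targets from -0.80 to -0.55. In Ribo-seq limma called 0 genes in either direction, and with the replicate block 57 higher and 35 lower. Deviations of same-numbered libraries correlated at 0.855, but with 2 pairs and no label on what a number shares, the numbers were not taken to pair the samples. Leaving out each library gave 0 to 24 higher and 0 to 11 lower genes, with 24 and 4 without KD replicate 1 and 2 and 11 without KD replicate 2, where the lone library is assumed to vary like the others. Among the 6940 genes with recovered reads 8 had under 20 reads in either library.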

Other observations

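Several lists of housekeeping genes lay to one side of 0 without a member past 2-fold. Of 34 proteasome subunits, which degrade ubiquitin-tagged proteins, 30 had a log2 ratio below 0, with a median of -0.30. Of 22 genes of cholesterol synthesis and uptake 18 were below 0, with a median of -0.30, and of 76 genes of oxidative phosphorylation 60 were below 0, with a median of -0.18. Of the replication-dependent histones *HIST2H2BE*, at 6.59 RPKM in control and 15.5 in KD, rose. Of 7370 genes 3807 were below 0 and the median was -0.01. In PARS-seq replicates 1 and 2 the medians were -0.49 and -0.31 for the proteasome list and -0.49 and -0.42 for the cholesterol list. For oxidative phosphorylation they were -0.36 and -0.11. In Ribo-seq replicate 1 the medians of the proteasome, cholesterol and oxidative phosphorylation lists were -0.22, -0.22 and -0.15. In Ribo-seq replicate 2 they were 0.71, 0.33 and 0.65, on the other side of 0, where the median of all genes was 0.10.

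Some genes of the described lists lay under the 5 RPKM mean. *IL6*, a proinflammatory cytokine, was at 0.332 RPKM in control and 4.95 in KD, with 1.18 and 1.61 in PARS-seq control and 5.13 and 6.77 in KD. The aldo-keto reductase *AKR1C2* was at 3.30 and 0.343 RPKM, and *AKR1B10* at 1.14 and 0.0622. The interferon-stimulated *UBE2L6* was at 1.20 and 3.48 RPKM. *MRPS18B*, a mitochondrial ribosomal protein, was at 121 and 75.2 RPKM in RNA-seq but listed at 0 in all 4 PARS-seq columns and in both Ribo-seq columns of replicate 2.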
